A study of Mus musculus with 14 samples.

Results

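Ccbe1 and 7 genes of lymphatic vessels (Adamts3, Vegfc, Flt4, Prox1, Lyve1, Mmrn1 and Reln) were followed in whole lungs of mice without the tetraspanin CD151, mice without the tetraspanin CD9, and wild type mice. The 8 genes were represented by the 20 probe sets, of 45101 on the array, whose platform annotation gave exactly 1 of these symbols. Ccbe1 was chosen on its low signal in CD151KO lungs, and the other 7 for their known part in VEGF-C processing or lymphatic endothelium. For that reason the members' values in CD151KO against wild type, and those of Ccbe1 in every comparison, are given as a description with no test.

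The series measured lung total RNA of 14 samples with 1-colour Affymetrix arrays, 1 array a sample. The groups were CD151KO (5 samples, numbered 1 to 5), CD9KO (5 samples, numbered 1 to 5) and wild type (4 samples, numbered 1, 3, 4 and 5). All mice were of C57BL/6 background and 20 weeks of age, and the way either gene was inactivated was not given in the sources used here. The labels do not say whether replicates are different mice. The p-values therefore measure only how far these samples spread, and that spread may be technical.

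CCBE1 is a secreted protein with collagen-like and EGF-like repeats. It brings the protease ADAMTS3 to the precursor of VEGF-C, which ADAMTS3 cuts into the active growth factor. Active VEGF-C binds VEGFR3, the receptor made from Flt4, on lymphatic endothelial cells, the cells that line the vessels draining fluid and immune cells from the lung. PROX1 is the transcription factor that sets lymphatic endothelial identity, LYVE1 is a hyaluronan receptor on these cells, and multimerin 1 (Mmrn1) and reelin (Reln) are proteins they secrete.

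Signals are the authors' normalized values on a linear scale, and levels of different probe sets are not compared, because probes differ in brightness. Fold changes are on the log2(signal + 16) scale, which understates changes of weak signals. A gene stands for its brightest probe set. Of 18193 genes, 12985 lay above a filter at the 40th percentile of mean level (a signal of 53.4) and were tested, and of the 8 members 6 did. Adamts3 and Prox1 lay below it and were not tested in the same fit. A gene passed at a limma adjusted p under 0.05 over all genes tested.

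The labels were checked on the targeted genes. Cd151 measured 1058 ± 17.7 in CD151KO (SD, n = 5), against 5330 ± 372 in wild type (n = 4), and Cd9 measured 667 ± 52.3 in CD9KO (n = 5), against 8096 ± 69.4 in wild type. The lung markers Sftpc (surfactant protein C) and Scgb1a1 (club cell secretoglobin) were among the brightest probe sets on every array, at 28308 or more. Array number 1 of CD151KO and number 1 of wild type stood apart on the first principal component (37.5% of the variance over the tested genes). Their scores were -17.2 and -18.5, against -8.01 to 13.4 on the other 12 arrays, and CD9KO arrays scored 7.23 to 13.4. BioB, a bacterial control added at hybridization, read 363 to 424 on CD151KO arrays, 361 to 444 on CD9KO arrays and 314 to 354 on wild type arrays, so every knockout array lay above every wild type array. Its part in any difference from wild type was not tested.

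Ccbe1 was lower in CD151KO lungs than in both other groups, on each array. Its brightest probe set measured 212, 215, 235, 251 and 245 in CD151KO numbers 1 to 5. It measured 398, 328, 318, 406 and 384 in CD9KO numbers 1 to 5. In wild type it measured 387, 305, 407 and 360 in numbers 1, 3, 4 and 5. The highest CD151KO array lay below the lowest array of either other group, as held for 1.69% of the genes tested against wild type and 4.06% against CD9KO, and the CD9KO and wild type ranges overlapped almost fully. The means were 232 ± 17.5 in CD151KO (SD, n = 5), 367 ± 40.7 in CD9KO (n = 5) and 365 ± 44.4 in wild type (n = 4). The log2 difference was -0.61 (SE 0.09) for CD151KO against wild type, a 1.53-fold lower signal. It was 0.01 (SE 0.09) for CD9KO against wild type and -0.62 (SE 0.08) for CD151KO against CD9KO.

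A second probe set of Ccbe1 gave the same order of groups, and the remaining pair gave almost no signal. The second probe set measured 83.1, 88.7, 98.4, 97.7 and 86.6 in CD151KO and 157, 136, 167, 176 and 153 in CD9KO, against 126, 115, 165 and 145 in wild type. All CD151KO arrays again lay below all others, and the log2 difference was -0.51 for CD151KO against wild type and -0.70 for CD151KO against CD9KO. The other 2 probe sets measured 11.02 to 16.8 on all arrays, under the level filter, and their groups overlapped. Averaged over its 4 probe sets, the CD151KO difference from wild type was -0.29, since the pair without signal enters that mean. Leaving out any 1 array gave values between -0.69 and -0.56, and leaving out the number 1 arrays of CD151KO and wild type gave -0.55.

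**Figure D1:**
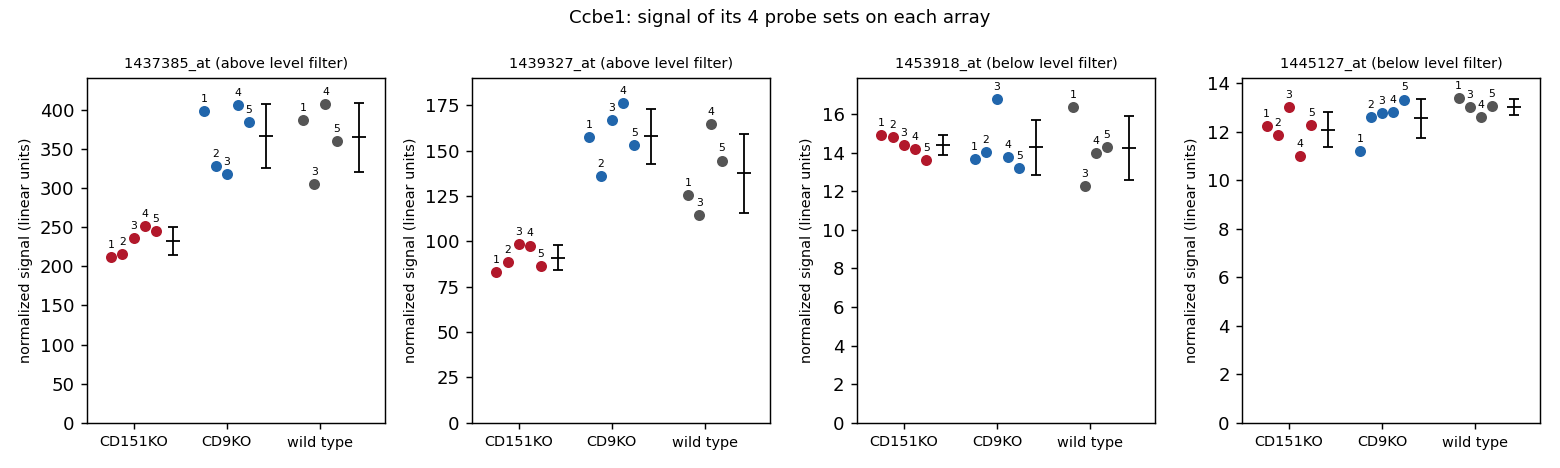
Normalized signal (linear units, vertical axes from 0) of the 4 Ccbe1 probe sets on each array of CD151KO, CD9KO and wild type; points carry the replicate number and the bars give the mean and SD. On the first 2 probe sets the CD151KO arrays (212 to 251 and 83.1 to 98.4) lie below all others, and on the other 2 all arrays lie between 11.02 and 16.8.

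Adamts3, the protease that CCBE1 places on VEGF-C, was weakly detected, with its highest signals in CD9KO. Its brighter probe set measured 36.2, 35.4, 39.9, 48.6 and 50.8 in CD151KO numbers 1 to 5 and 57.3, 55.5, 69.1, 94.3 and 52.7 in CD9KO. In wild type it measured 25.3, 43.1, 47.1 and 49.96. Every CD9KO array lay above every array of both other groups, and CD151KO and wild type overlapped. Among the 5208 genes below the level filter, 1.63% had all CD9KO arrays above all wild type arrays, and 0.672% had all CD151KO arrays below all CD9KO arrays. In a fit without the filter the log2 difference was 0.51 (SE 0.15, limma adjusted p = 0.068) for CD9KO against wild type and -0.48 (SE 0.14, limma adjusted p = 0.055) for CD151KO against CD9KO, so neither passed. The other Adamts3 probe set measured 10.7 to 14.6 on all arrays.

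Vegfc, the growth factor that the protease activates, had overlapping ranges in the 3 groups. It measured 619, 752, 704, 865 and 820 in CD151KO and 623, 693, 651, 830 and 559 in CD9KO, against 460, 583, 754 and 730 in wild type. Number 1 was the lowest array of both CD151KO and wild type. The log2 difference was 0.10 for CD9KO against wild type (SE 0.14, 95% interval -0.20 to 0.40, limma adjusted p = 0.682) and 0.16 for CD151KO against CD9KO (SE 0.13, 95% interval -0.12 to 0.44, limma adjusted p = 0.450). For CD151KO against wild type it was 0.26 (SE 0.14). Without wild type number 1 it was 0.12 for CD151KO against wild type and -0.04 for CD9KO against wild type. Its 3 probe sets followed each other closely across arrays (r = 0.88 to 0.98 for deviations from the group means, 14 arrays).

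Adamts3 and Vegfc followed each other across arrays within the groups. Their deviations from the group means correlated at r = 0.87 over the 14 arrays, and at 0.76 without wild type number 1 and CD9KO number 4, the arrays farthest out for Vegfc. CD9KO number 4 was the highest array of its group for Adamts3, Vegfc and Lyve1, and wild type number 1 the lowest of its group for all 3. The arrays also share whatever the first principal component holds, on which these same arrays were the extremes (13.4 and -18.5). Deviations of Adamts3, Vegfc and Lyve1 correlated with deviations on that component at r = 0.80, 0.85 and 0.77, and those of Flt4 at -0.69, the opposite direction. The values were 0.46 for Prox1, 0.29 for Ccbe1, 0.18 for Mmrn1 and 0.00 for Reln. Deviations of Flt4 also ran against those of Adamts3 (r = -0.63) and Vegfc (r = -0.58). These correlations are descriptions over arrays that share a scale and a normalization.

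**Figure D2:**
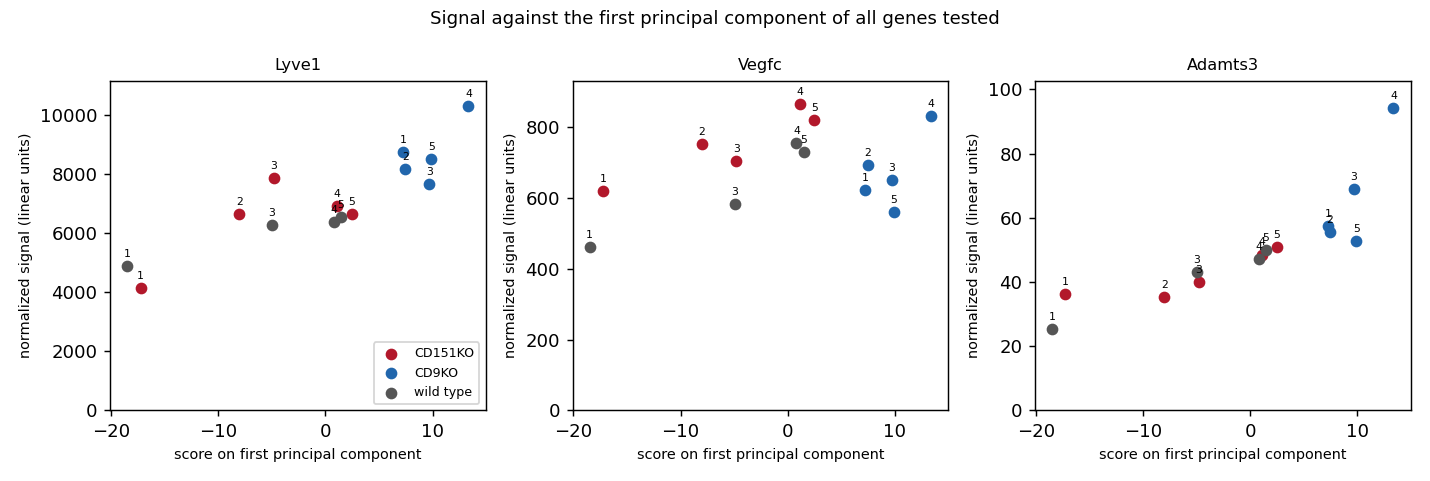
Normalized signal (linear units, vertical axes from 0) of Lyve1, Vegfc and Adamts3 against the score of each array on the first principal component of all genes tested; colours give the group and numbers the replicate. Lyve1 is lowest on the number 1 arrays of CD151KO and wild type (4140.5 and 4907), at scores of -17.2 and -18.5, and Adamts3 is highest on CD9KO number 4, at 13.4.

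The windows around the start sites of these 2 genes are shown because the pair varied together. They run from 250 bases before to 50 bases after the start and come from RefSeq (GRCm38.p6). Windows of 6 of the 8 members were used, and none of Ccbe1 or Lyve1. That count describes the windows used here and not what RefSeq holds. Capitals mark matches to 5 motifs searched on both strands. The motif of GATA factors was AGATAA, held by 11.2% of 32851 windows. For SOX factors it was AACAAT, held by 10.7%, and for ETS factors CCGGAAG, held by 8.86%. The E-box was CACGTG, held by 7.15%, and the D-box TTATGNAA, held by 3.38%; no letters of one overlapped another in the windows printed. Neither window held any of them, and both were rich in G and C, at 77.3% for Adamts3 and 70.3% for Vegfc, against a median of 52.7% over all windows.
Adamts3, chr5:89883285-89883584, minus strand: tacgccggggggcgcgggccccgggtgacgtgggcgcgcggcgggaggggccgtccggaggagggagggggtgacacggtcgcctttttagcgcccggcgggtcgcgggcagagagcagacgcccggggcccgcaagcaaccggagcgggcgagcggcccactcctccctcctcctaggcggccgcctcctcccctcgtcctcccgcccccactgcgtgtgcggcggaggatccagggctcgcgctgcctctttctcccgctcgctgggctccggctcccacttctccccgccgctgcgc
Vegfc, chr8:54077282-54077581, plus strand: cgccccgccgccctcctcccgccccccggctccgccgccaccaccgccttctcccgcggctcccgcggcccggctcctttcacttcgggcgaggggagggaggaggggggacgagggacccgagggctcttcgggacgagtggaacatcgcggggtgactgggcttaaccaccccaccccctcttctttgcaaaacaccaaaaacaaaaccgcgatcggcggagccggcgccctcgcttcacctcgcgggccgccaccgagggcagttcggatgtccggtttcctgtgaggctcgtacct

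Flt4, the gene of the VEGF-C receptor, had overlapping ranges in all groups. It measured 567, 621, 566, 491 and 475 in CD151KO and 660, 545, 551, 556 and 564 in CD9KO, against 611, 558, 527 and 535 in wild type. The groups overlapped throughout. The log2 difference was 0.04 for CD9KO against wild type (95% interval -0.12 to 0.21, limma adjusted p = 0.765) and -0.08 for CD151KO against CD9KO (95% interval -0.24 to 0.07, limma adjusted p = 0.505). For CD151KO against wild type it was -0.04 (SE 0.08). The second Flt4 probe set measured 73.8 to 98.6 on all arrays and did not follow the first (r = -0.20 for deviations from the group means, 14 arrays).

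Prox1 gave almost no signal in whole lung. Its brightest probe set measured 13.9 to 15.9 in CD151KO, 14.2 to 17.9 in CD9KO and 11.05 to 20.03 in wild type, at the 14.3rd percentile of all probe sets, and the other 2 measured 6.87 to 14.9. At this signal no difference was detectable in the gene that defines lymphatic identity. In whole lung RNA, fewer lymphatic cells and less RNA per cell cannot be told apart.

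Lyve1, the hyaluronan receptor, had its highest signals in CD9KO. It measured 4140.5, 6647, 7872, 6914 and 6658 in CD151KO and 8765, 8169, 7660, 10320.4 and 8517 in CD9KO, against 4907, 6298, 6380 and 6561 in wild type. Every CD9KO array lay above every wild type array, CD151KO number 3 reached into the CD9KO range, and number 1 was far below the rest of its group in CD151KO and in wild type. The means were 6446 ± 1383 in CD151KO (SD, n = 5), 8686 ± 1003 in CD9KO (n = 5) and 6036 ± 761 in wild type (n = 4). The second probe set followed the first almost exactly (r = 0.99 for deviations from the group means, 14 arrays). The log2 difference was 0.53 for CD9KO against wild type (1.44-fold, SE 0.15, 95% interval 0.21 to 0.84, limma adjusted p = 0.0504), just short of the threshold. For CD151KO against CD9KO it was -0.45 (1.37-fold, SE 0.14, 95% interval -0.75 to -0.16, limma adjusted p = 0.052), and for CD151KO against wild type 0.07 (SE 0.15).

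Lyve1 stood on the edge of the threshold under other settings too. Over 28 alternatives the CD9KO difference from wild type ran from 0.43 to 0.57 and its limma adjusted p from 0.0092 to 0.144, and 9 of them passed. Without the number 1 arrays of CD151KO and wild type it was 0.43 (limma adjusted p = 0.0197), and the CD151KO difference from CD9KO was -0.30 (limma adjusted p = 0.021).

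Some macrophages of the lung interstitium also make LYVE1, so macrophage genes were read beside it. Of 17 macrophage markers tested, 1 rose and 0 fell in CD9KO against wild type, where 2.88% of all genes rose. It was Cd163, a scavenger receptor of tissue macrophages, at 222 ± 31.01 in CD9KO (SD, n = 5), against 128 ± 16.5 in wild type (n = 4; log2 0.73, SE 0.19, limma adjusted p = 0.040). The call for Cd163 ended without wild type 1, 3 or 4, CD151KO 3, or CD9KO 1, 3, 4 or 5 (limma adjusted p up to 0.108). Timd4, another marker of such cells, lay below the filter. Of the 17 tested, 5 were at an unadjusted limma p under 0.05, where 25.4% of all genes were. Cd163 was among them, with Mrc1 higher (log2 0.22) and Cd68 lower (log2 -0.23). In CD151KO against CD9KO 1 of the 17 passed, where 10.1% of all genes did. It was again Cd163, lower in CD151KO (log2 -0.74, SE 0.18, limma adjusted p = 0.0187), with overlapping ranges. That call passed without each of the 14 arrays in turn (limma adjusted p up to 0.0499). The summed signal of the 18 macrophage markers on the array was 40506 to 42962 in CD9KO and 39506 to 42867 in wild type. That of 30 blood endothelial markers was 64428 to 68735 in CD9KO and 63220 to 68938 in wild type. Such sums, here and below, follow their brightest markers and can miss a change of a weak one such as Cd163. The part of these cells in the Lyve1 values was not tested.

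Mmrn1, the gene of multimerin 1, differed little between groups. It measured 305, 406, 282, 327 and 337 in CD151KO and 331, 347, 387, 340 and 335 in CD9KO, against 263, 312, 329 and 252 in wild type. The lowest CD9KO array lay just above the highest wild type array, and CD151KO spanned most of both ranges. The other Mmrn1 probe set measured 5.57 to 6.74 on all arrays, under the level filter. The log2 difference was 0.26 for CD9KO against wild type (1.20-fold, SE 0.09, 95% interval 0.06 to 0.46, limma adjusted p = 0.098), which did not pass, and 0.19 (SE 0.09) for CD151KO against wild type. It was -0.07 for CD151KO against CD9KO (95% interval -0.26 to 0.11, limma adjusted p = 0.628). Platelets hold multimerin 1 as well. Of 11 platelet and megakaryocyte markers tested, 0 passed in CD9KO against wild type. There 0 were at an unadjusted limma p under 0.05, where 25.4% of all genes were. Their summed signal over 12 genes was 2894 to 4647 in CD9KO and 3190 to 3959 in wild type.

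Reln, the gene of reelin, was higher in CD151KO than in wild type on each array. It measured 248, 342, 247, 248 and 249.6 in CD151KO and 227, 263, 236, 230 and 194 in CD9KO, against 201, 207, 233 and 207 in wild type. All CD151KO arrays lay above all wild type arrays, 4 of the 5 within 3 units of each other and number 2 far above them, and CD9KO overlapped both. The other Reln probe set measured 7.48 to 9.06 on all arrays, under the level filter. The log2 difference was 0.30 (1.23-fold, SE 0.09) for CD151KO against wild type, as a description. It was 0.21 without CD151KO number 2 and 0.15 averaged over the Reln probe sets. For CD9KO against wild type it was 0.11 (95% interval -0.10 to 0.31, limma adjusted p = 0.500). For CD151KO against CD9KO it was 0.20 (95% interval 0.01 to 0.39, limma adjusted p = 0.164), and 0.11 without CD151KO number 2. Over 28 alternatives the limma adjusted p of the latter comparison ran from 0.037 to 0.347. Deviations of Reln and Mmrn1 from the group means correlated at r = 0.69 over 14 arrays, and at 0.57 without CD151KO number 2 and CD9KO number 2.

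The start windows of Mmrn1 and Reln are shown because they differ most in base composition among the 6 members with a window used. The Mmrn1 window held 44.3% G and C and 3 CG pairs, the Reln window 80.7% and 47, and a median window 7 CG pairs. The Mmrn1 window matched the SOX letters at 1 place, and the Reln window the ETS letters (as CTTCCGG, the opposite strand) and the E-box letters at 1 place each. Capitals mark these matches, which are descriptions of the sequence and not binding sites.
Mmrn1, chr6:60944067-60944366, plus strand: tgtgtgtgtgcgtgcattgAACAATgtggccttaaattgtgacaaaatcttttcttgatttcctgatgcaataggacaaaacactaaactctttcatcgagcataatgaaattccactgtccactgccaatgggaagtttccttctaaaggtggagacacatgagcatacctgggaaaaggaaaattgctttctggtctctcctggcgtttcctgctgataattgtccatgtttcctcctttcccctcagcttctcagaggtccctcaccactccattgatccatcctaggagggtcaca
Reln, chr5:22344656-22344955, minus strand: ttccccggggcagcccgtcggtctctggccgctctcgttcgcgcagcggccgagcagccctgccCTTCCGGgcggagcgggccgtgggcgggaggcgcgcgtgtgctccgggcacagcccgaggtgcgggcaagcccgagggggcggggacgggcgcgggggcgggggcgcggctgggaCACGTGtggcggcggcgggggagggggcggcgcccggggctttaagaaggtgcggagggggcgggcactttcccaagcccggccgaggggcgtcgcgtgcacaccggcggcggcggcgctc

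**Figure D3:**
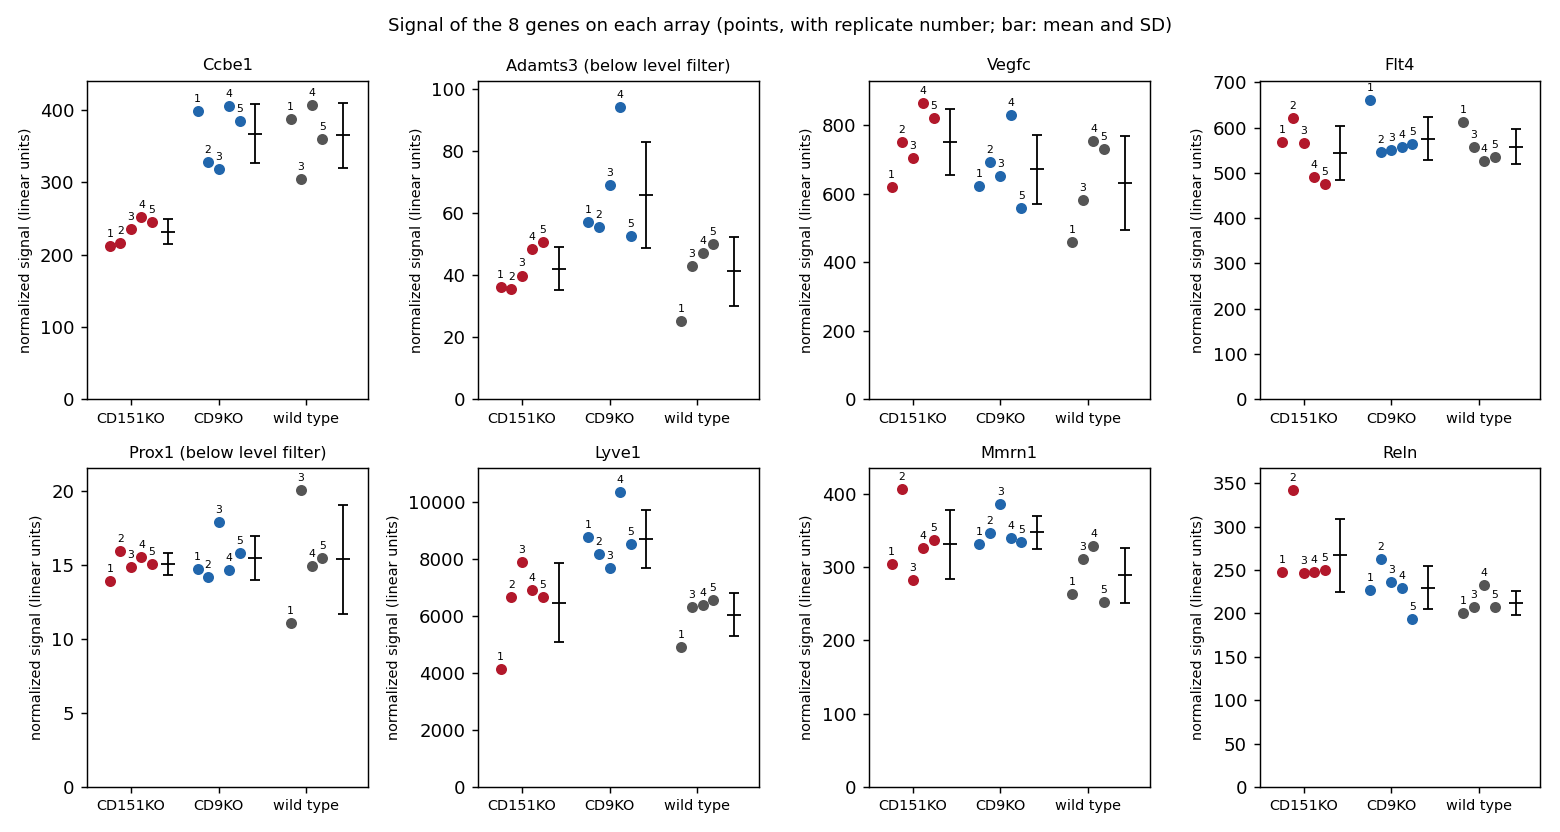
Normalized signal (linear units, vertical axes from 0) of the brightest probe set of each of the 8 genes on every array of CD151KO, CD9KO and wild type; points carry the replicate number and bars give the mean and SD. Ccbe1 is separate in CD151KO (212 to 251), Lyve1 (7660 to 10320.4) and Adamts3 (52.7 to 94.3) lie highest in CD9KO, and Prox1 stays between 11.05 and 20.03.

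The members were then counted and set beside all genes. No members were counted in CD151KO against wild type, the comparison used to choose Ccbe1, in which 0.778% of the 12985 genes passed (0.454% higher, 0.323% lower). In CD9KO against wild type 0 of the 5 tested members other than Ccbe1 passed, where 5.51% of all genes did (2.88% higher, 2.63% lower), and 2 (Lyve1 and Mmrn1) were at an unadjusted p under 0.05, where 25.4% of all genes were. In CD151KO against CD9KO 0 of the 5 passed, where 10.1% of all genes did (5.99% higher, 4.12% lower), and 2 (Lyve1 and Reln) were at an unadjusted p under 0.05, where 27.6% of all genes were. Without Ccbe1 the median log2 difference of the 5 was 0.11 in CD9KO against wild type, where that of all genes was 0.0037, and -0.07 in CD151KO against CD9KO, where that of all genes was 0.0016. Groups did not overlap for Lyve1 and Mmrn1 in CD9KO against wild type, both higher, as did 6.64% of the genes tested, and for Reln as higher in CD151KO against wild type, as did 2.84%. The comparisons against wild type share the 4 wild type arrays.

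**Figure D4:**
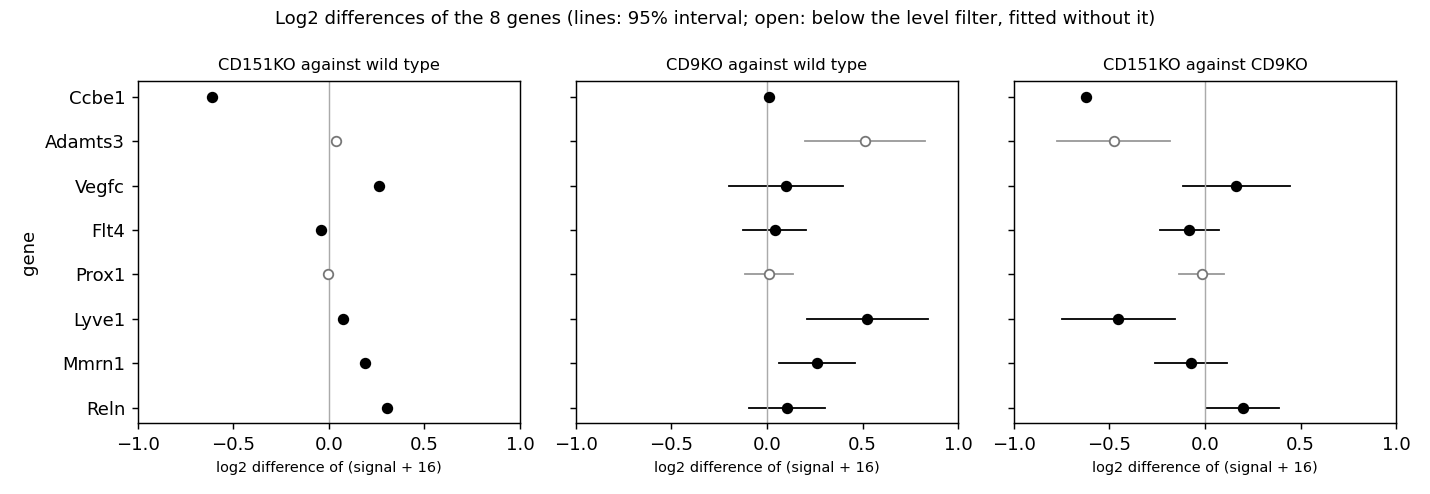
Log2 difference of (signal + 16) of the 8 genes in CD151KO against wild type, CD9KO against wild type and CD151KO against CD9KO; lines are 95% intervals of the limma fit, left out for the values used in choosing the genes, and open points are the genes below the level filter, fitted without it. Lyve1 (0.53), Adamts3 (0.51) and Mmrn1 (0.26) lie right of 0 with their intervals in CD9KO against wild type, with adjusted p-values of 0.0504, 0.068 and 0.098.

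Other genes of the VEGF system were read from a list. Of 11 ligands, receptors and co-receptors tested, 0 passed in CD151KO against wild type. There 1 was at an unadjusted limma p under 0.05, where 11.1% of all genes were. In CD9KO against wild type 1 rose and 0 fell, where 2.88% of all genes rose. It was Flt1, the gene of VEGFR1, which binds VEGF-A, at 1856 ± 55.6 in CD9KO (SD, n = 5), against 1359 ± 170 in wild type (n = 4; 1.37-fold, limma adjusted p = 0.0108). In CD151KO against CD9KO Flt1 and Vegfd were lower and Itga9 was higher, and the other 8 did not pass. Of all genes 10.1% passed there.

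Vegfd, the gene of VEGF-D, the other ligand of VEGFR3, measured 833, 1094.5, 802, 809 and 805 in CD151KO and 1463, 1049, 1268, 1213 and 1236 in CD9KO, against 908, 993, 1073 and 1114 in wild type. It was lower in CD151KO than in CD9KO by 1.43-fold (log2 -0.52, SE 0.09, limma adjusted p = 0.0052), with CD151KO number 2 inside the CD9KO range. Against wild type the log2 difference was -0.24 in CD151KO (limma adjusted p = 0.372) and 0.28 in CD9KO (limma adjusted p = 0.098). Itga9, a subunit of an integrin of lymphatic valves, was 1.20-fold higher in CD151KO than in CD9KO (330 ± 25.03 against 273 ± 20.3, SD, n = 5 each, limma adjusted p = 0.0154). The Flt1, Vegfd and Itga9 calls passed without each of the 14 arrays in turn.

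Of 30 further lymphatic endothelial markers tested, 41 being listed, 1 rose and 0 fell in CD151KO against wild type, where 0.454% of all genes rose. In CD9KO against wild type 2 rose and 0 fell, where 2.88% of all genes rose. The median log2 difference was 0.05 in CD151KO and 0.04 in CD9KO. Ackr2, a decoy receptor by which lymphatic endothelium clears chemokines, measured 1049, 954, 1121, 1172 and 1095 in CD9KO, against 594, 751, 751 and 891 in wild type. Every CD9KO array was above every wild type array (1.45-fold, log2 0.53, SE 0.10, limma adjusted p = 0.0161). In CD151KO Ackr2 measured 599 to 828, below all CD9KO arrays (1.45-fold, limma adjusted p = 0.0054). Both Ackr2 calls passed without each of the 14 arrays in turn.

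Fxyd6, a regulator of the sodium pump, rose in both knockouts, to 181 ± 10.6 in CD151KO and 168 ± 8.17 in CD9KO (SD, n = 5 each), against 135 ± 23.6 in wild type (n = 4; limma adjusted p = 0.032 and 0.047). These 2 comparisons share the wild type arrays. The CD151KO call ended without wild type 1, 4 or 5, CD151KO 2, 3, 4 or 5, or CD9KO 3 (adjusted p up to 0.127), and the CD9KO call without wild type 1, 4 or 5, CD151KO 2, 3, 4 or 5, or CD9KO 1, 3, 4 or 5 (up to 0.133). Pdpn (podoplanin), a lymphatic marker that alveolar type 1 cells also carry, measured 3390 ± 301 in CD151KO and 3660 ± 174 in CD9KO, against 3877 ± 369 in wild type, and did not pass in CD151KO against wild type (log2 -0.19, limma adjusted p = 0.264). Between the knockouts Pard6g, a polarity gene, and Ackr2 were lower in CD151KO than in CD9KO, and Itga9 and the fatty acid receptor gene Cd36 higher. In that comparison 10.1% of all genes passed. The Cd36 call (log2 0.12) ended without wild type 4, CD151KO 1, 2, 3 or 5, or CD9KO 1, 2, 4 or 5 (limma adjusted p up to 0.115).

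Of 28 regulators of lymphatic growth and valves tested, 0 passed in CD151KO against wild type. There 4 were at an unadjusted limma p under 0.05, where 11.1% of all genes were. In CD9KO against wild type 2 rose and 1 fell, where 2.88% of all genes rose and 2.63% fell. Ephb4, a receptor of valve formation, rose 1.22-fold, at 570, 514, 558, 502 and 491 in CD9KO, against 426, 398, 430 and 463 in wild type (limma adjusted p = 0.0161), and the call ended without wild type 3 (adjusted p = 0.054). Ramp2, which makes the receptor for adrenomedullin, rose 1.15-fold (limma adjusted p = 0.039), and that call ended without wild type 1, 3 or 4, CD151KO 4, or any CD9KO array (adjusted p up to 0.108). Fat4, an atypical cadherin, fell by 0.34 on the log2 scale (limma adjusted p = 0.037), a call that ended without any wild type array or without CD9KO 3, 4 or 5 (adjusted p up to 0.1002). Between the knockouts, where 10.1% of all genes passed, Ramp2 was lower in CD151KO by 1.24-fold (limma adjusted p = 0.0027), and Met, Cxcl12 and Fat4 were higher. The Met call ended without CD151KO 1 (limma adjusted p = 0.052), the Cxcl12 call without CD151KO 1 or 2 or CD9KO 5 (up to 0.067), and the Fat4 call without CD151KO 1, 2 or 3 or CD9KO 2, 3, 4 or 5 (up to 0.091).

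Among proteases and matrix genes near Adamts3 in function, 5 of 12 passed in CD151KO against CD9KO, where 10.1% of all genes passed. Of the 12 proteases and matrix genes tested, 0 passed in CD151KO against wild type. There 2 were at an unadjusted limma p under 0.05, where 11.1% of all genes were. In CD9KO against wild type 1 rose, where 2.88% of all genes rose. It was Plat, the plasminogen activator of endothelium, at 1663 ± 223 in CD9KO (SD, n = 5), against 996 ± 233 in wild type (n = 4; 1.68-fold, limma adjusted p = 0.043). The Plat call ended without wild type 1 or 3, CD151KO 3 or 4, or CD9KO 1, 3, 4 or 5 (adjusted p up to 0.127). In CD151KO against CD9KO, Timp3, an inhibitor of ADAMTS and other metalloproteases, was 1.34-fold lower (7546 ± 752 against 10114 ± 687, SD, n = 5 each, limma adjusted p = 0.0028), Fn1 and Thbs1 were lower, and Emilin1 and Pcsk5 higher. Emilin1, an elastic fibre protein that anchors lymphatic vessels, measured 329 ± 13.7 in CD151KO and 264 ± 25.2 in CD9KO (limma adjusted p = 0.0172). The Timp3, Fn1 and Emilin1 calls passed without each of the 14 arrays in turn, while that of Thbs1 ended without CD151KO 2 or 3 or CD9KO 1, 4 or 5 (limma adjusted p up to 0.072) and that of Pcsk5 without CD151KO 1 or 2 or CD9KO 2, 3 or 4 (up to 0.080).

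Of 11 genes of reelin reception and signalling tested, 0 passed in CD151KO against wild type. There 0 were at an unadjusted limma p under 0.05, where 11.1% of all genes were. Reln itself was higher in that comparison, as a description with no test. In CD9KO against wild type 1 rose and 0 fell, where 2.88% of all genes rose. It was Fyn, a kinase that phosphorylates the reelin adaptor, at 601 ± 23.2 in CD9KO (SD, n = 5), against 464 ± 51.4 in wild type (n = 4; limma adjusted p = 0.0161). Fyn was also lower in CD151KO than in CD9KO (log2 -0.30, limma adjusted p = 0.0144), and both Fyn calls passed without each of the 14 arrays in turn. The receptor gene Vldlr had a log2 difference of -0.13 in CD9KO against wild type (limma adjusted p = 0.222).

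Markers of other cells that could carry these transcripts were set beside them. Of 29 blood endothelial markers tested, 0 passed in CD151KO against wild type. There 4 were at an unadjusted limma p under 0.05, where 11.1% of all genes were. In CD9KO against wild type Flt1 and Ramp2 rose and Emcn fell, where 5.51% of all genes passed. The Emcn call ended without wild type 1 or 3 or CD9KO 2, 4 or 5 (limma adjusted p up to 0.086). In CD151KO against CD9KO Flt1, Ramp2, Car4 and Eng were lower and Cldn5 higher, where 10.1% of all genes passed. The Eng call ended without CD9KO 5 (limma adjusted p = 0.056). That of Cldn5 ended without wild type 3, 4 or 5, CD151KO 1, 2 or 3, or CD9KO 3, 4 or 5 (up to 0.108). Flt1 and Ramp2 are also in lists above, so these are the same calls. Fibroblasts make CCBE1 in many tissues. Of 23 fibroblast and pericyte markers tested, 3 rose and 0 fell in CD151KO against wild type (Mfap5, Scara5 and Col3a1), where 0.454% of all genes rose. The summed signal of 24 such markers was 47349 to 50385 in CD151KO and 46504 to 48380 in wild type. The summed signal of 9 mesothelial markers was 6929 to 7467 in CD151KO and 6600 to 6810 in wild type, so all CD151KO arrays lay above. Of these 9 markers 0 passed in CD151KO against wild type. Only 1, Upk1b, was at an unadjusted limma p under 0.05 there, beside 11.1% of all genes. The Scara5 call ended without wild type 3, 4 or 5 or CD151KO 2, 3, 4 or 5, and the Col3a1 call without wild type 3, 4 or 5 or CD151KO 1, 3, 4 or 5 (limma adjusted p up to 0.107 each). PROX1 also occurs in heart muscle and neuroendocrine cells, whose markers were read in CD9KO against wild type. Of 12 cardiac markers 1 rose (Myh6) and 10 were at an unadjusted limma p under 0.05, where 2.88% and 25.4% of all genes were. Their median log2 difference was 0.42, with sums of 10478 to 14964 in CD9KO and 8451 to 9964 in wild type. Of 4 neuroendocrine markers tested 3 rose (Resp18, Ccn3 and Uchl1), beside the same 2.88%. The Myh6 call ended without wild type 1 or 3 or CD9KO 3 or 4 (limma adjusted p up to 0.078), the Ccn3 call without wild type 3 (0.059), and the Uchl1 call without any of 11 of the 14 arrays (up to 0.112). The part of these cells in the members' values was not tested.

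The genes whose signal was most like that of Ccbe1 over the 14 arrays were sought among the 12985 tested, by Pearson correlation of log2 values. The 5 most alike were Mthfd1l (r = 0.94), Tef (0.92), Usp2 (0.92), Tspan4 (0.92) and Ankrd12 (0.92). Mthfd1l codes for a mitochondrial folate enzyme, Tef for a clock-controlled transcription factor, Usp2 for a deubiquitinase, and Tspan4 for a tetraspanin whose gene lies on chromosome 7, as does Cd151. These values hold the difference of CD151KO by which Ccbe1 was chosen, and for deviations from the group means the correlations were 0.64, 0.53, 0.62, 0.41 and 0.68. Mthfd1l measured 181 in CD151KO, 291 in CD9KO and 272 in wild type on average. The 5 most opposite were Ascc2 (r = -0.94), Mccc1 (-0.92), Nrcam (-0.92), Cxcl15 (-0.92) and Zdhhc3 (-0.90). Among the members, the correlation with Ccbe1 was 0.40 for Lyve1, 0.39 for Adamts3, -0.29 for Vegfc and -0.66 for Reln, and none of the other 7 members was among the 5 closest.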

How the data were processed

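Lung total RNA of 14 samples was measured on Affymetrix arrays with biotin-labelled RNA, per the labels. The deposited values are normalized intensities on a linear scale, 1 per probe set and array, called normalized per the labels. The submitters' processing notes list MAS5 and Affymetrix Expression Console without a role. Summary and normalization methods were not given in the sources used here; low signals can depend on them.

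Gene names came from the platform annotation (34958 with 1 symbol, 932 with several, 9211 with none; 34754 matched a GRCm38.p6 gene table by Entrez ID). Tests left out the 64 controls and every probe set without exactly 1 symbol. Values were log2(signal + 16), and a gene was its probe set of the highest mean. One limma model (version 3.58.1, R 4.3.3) covered the 3 groups and 14 arrays (eBayes with trend, 11 residual degrees of freedom, two-sided, Benjamini-Hochberg). Adjusted p-values are limma's throughout. The procedure was tested on simulated data. Figures used matplotlib 3.10.9. The number of arrays limits the precision.

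The members, gene lists and the rule for named genes were chosen with earlier results of these data known. Named were the 8 members, the 5 genes most and least like Ccbe1, and, of 14 other lists, genes that passed or up to 3 of smallest p. Alternatives were pseudocounts of 1 and 64, quantile normalization, median centring, no trend, no moderation, no filter, a 60th percentile filter, every probe set, probe sets averaged by gene, a block for replicate number, array weights, the compared groups alone and arrays left out. Leaving out arrays for the other lists was added after seeing the data.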

Additional observations from a re-analysis of the deposited data

Results flagged for a closer look

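In 4 of 24 sets of arrays (8 genes in 3 groups), the highest or lowest array stood apart from its own group by Dixon's criterion, which chance meets in about 1 of 20 sets. Reln number 2 of CD151KO, at 342, lay above the other 4, at 247 to 249.6. Mmrn1 was also highest on that array in CD151KO, at 406. Lyve1 was lowest on wild type number 1, at 4907, against 6298 to 6561 on the other 3. Flt4 was highest on CD9KO number 1, at 660, against 545 to 564 on the other 4. Mmrn1 was highest on CD9KO number 3, at 387, against 331 to 347 on the other 4.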

How the results depend on the processing

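Members: the Ccbe1 difference of CD151KO from wild type stayed below 0 in all 28 alternatives (-0.69 to -0.29, -0.69 to -0.56 with 1 array left out) and moved beyond the replicate SD in 1, the mean of all probe sets (-0.29). In CD9KO against wild type 0 of 5 passed, but 1 (Lyve1) with quantile normalization, the 60th percentile filter, every probe set, the compared groups alone, array weights, the replicate block (limma adjusted p = 0.0197) or without both number 1 arrays, and 0 to 1 with 1 array left out (1 without CD151KO 1 or 3). In CD151KO against CD9KO 1 (Lyve1) passed with quantile normalization, the 60th percentile filter, array weights and without both number 1 arrays, 2 with the replicate block (Lyve1 at 0.022 and Reln at 0.037), and 0 to 1 with 1 array left out (1 without wild type 1 or CD151KO 3). The Vegfc difference of CD9KO from wild type changed sign with array weights (-0.062), without wild type 1 (-0.040; lowest to highest with 1 array left out, -0.040 to 0.190) and without both number 1 arrays (-0.040), and that of Flt4 without CD9KO 1 (-0.0073; -0.0073 to 0.086 with 1 array left out); the cause was not tested. 

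Genes passing: 101 in CD151KO against wild type became 39 with the compared groups alone, 335 with array weights, 57 without moderation, 45 without both number 1 arrays and 24 to 98 with 1 array left out. The 715 in CD9KO against wild type became 1555 with every probe set, 1090 with array weights, 1591 with the replicate block, 313 without moderation, 405 without both number 1 arrays and 155 to 867 with 1 left out. The 1313 in CD151KO against CD9KO ran from 686 to 1941 with 1 left out. The labels give no meaning to the replicate numbers. Deviations of same-numbered arrays correlated at 0.59, -0.13, 0.45 and 0.26 for CD151KO and wild type, at 0.0043 to 0.18 for CD9KO and wild type, and at -0.098 to 0.21 for CD151KO and CD9KO. Numbers 1 and 4 of CD151KO and 1, 4 and 5 of CD9KO correlated best with their own number in wild type. Number 3 of either knockout and number 5 of CD151KO did not. Scores on the first principal component rose with the number in wild type (-18.5, -4.97, 0.81 and 1.48) and CD151KO (-17.2, -8.01, -4.80, 1.11 and 2.46). In CD9KO they were 7.23, 7.46, 9.69, 13.4 and 9.89. A pairing was not taken as shown, and the main fit held no term for the number. Low signals (Prox1, Adamts3) limit what can be seen.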

Other observations

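When only deviations from the group means were compared, so that the CD151KO difference did not enter, the genes most like Ccbe1 over the 14 arrays were Arhgap33 (r = 0.92), Nr4a3 (0.90), Las1l (0.83), Ilkap (0.83) and Dnajc7 (0.82). None of them was among the 5 genes most like it by values. Arhgap33 measured only 54.2 to 60.1 over all arrays, just above the level filter at 53.4, so its correlation rests on small changes of a weak signal. Nr4a3, an immediate early nuclear receptor gene, averaged 316 in CD151KO, 517 in CD9KO and 393 in wild type, and passed in CD151KO against CD9KO (limma adjusted p = 0.0111). These correlations are descriptions over 14 arrays among 12985 genes.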
